A study of Homo sapiens with 6 samples.

Results

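The genes followed here belong to the early transcriptional response to stimulation. They are 9 immediate early genes (FOS, FOSL1, JUN, JUNB, JUND, EGR1, IER2, KLF6 and DUSP1) and MYC, 10 out of 57820 genes in the count table. They were chosen by name, and all 10 were found by matching their Ensembl identifiers to symbols. The RNA came from HEK293 cells, an established line of human embryonic kidney origin, in 6 total RNA libraries. In 3 of them the cells had been kept for 12 h with 100 µM minocycline, a tetracycline antibiotic, and in 3 with its vehicle DMSO (control). Both groups were grown in medium with serum and penicillin-streptomycin, and neither was heat shocked. The drug is the single difference that the labels give, and each group is 3 biological replicates of a single line at a single dose and time. The labels do not say whether these were separate cultures, so p-values measure the spread between these libraries. The comparison asks how the drug changed transcript abundance.

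Immediate early genes are transcribed within minutes of a signal, without new protein synthesis, through factors such as SRF and CREB that are already in the cell. Their mRNAs are short-lived, and many carry AU-rich elements in the 3' untranslated region (3' UTR) that bind decay factors. FOS and FOSL1 pair with JUN, JUNB or JUND to form AP-1, a leucine zipper transcription factor. EGR1 and KLF6 are zinc finger transcription factors, IER2 is a nuclear regulator of transcription, DUSP1 is a phosphatase that switches off MAP kinases, and MYC is a basic helix-loop-helix factor that drives growth genes.

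None of the 10 genes changed past the threshold with minocycline. JUN and JUNB had lower values in all 3 minocycline libraries than in any control library, at 0.870-fold and 0.837-fold in the fit. MYC had higher values in all 3, by 11.8%. In edgeR's quasi-likelihood test over 17225 genes the Benjamini-Hochberg adjusted p of the 10 genes ran from 0.820 to 0.999. Of all genes tested 0.0522% were called at an adjusted p under 0.05, and 0 of 10 members is read against that share. At an unadjusted p under 0.05 the count was 0 of 10 in edgeR (4.7% of all genes), 2 of 10 in DESeq2 (JUNB and JUND) and 0 of 10 in limma-voom. The share of all genes at that cut was not taken for DESeq2 or limma-voom, so their counts are not read as a result. Neither DESeq2 nor limma-voom called a member after adjustment. Counts of RNA in bulk cannot tell fewer cells making a transcript from less transcript per cell. All libraries were taken at 12 h, so a change that came and went earlier was not measured.

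The 95% intervals of the log2 fold change, from the same fit and not adjusted for the number of genes, show which sizes of change the data leave room for. The highest upper bound was 0.52, a 1.44-fold rise, for EGR1. The lowest lower bound was -0.99, or 0.502-fold, for JUND. A 2-fold rise lay outside the interval of every one of the 10 genes, and so did a 1.5-fold rise. A 2-fold fall lay outside as well, narrowly for JUND. For JUND this covers the main fit alone. Its log2 fold change was as low as -0.71 in the alternative settings given below, for which intervals are not given here. The fitted level was higher in 4 members and lower in 6, with a median log2 fold change of -0.03 over the 10, beside 0.01 over all genes tested.

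**Figure D1:**
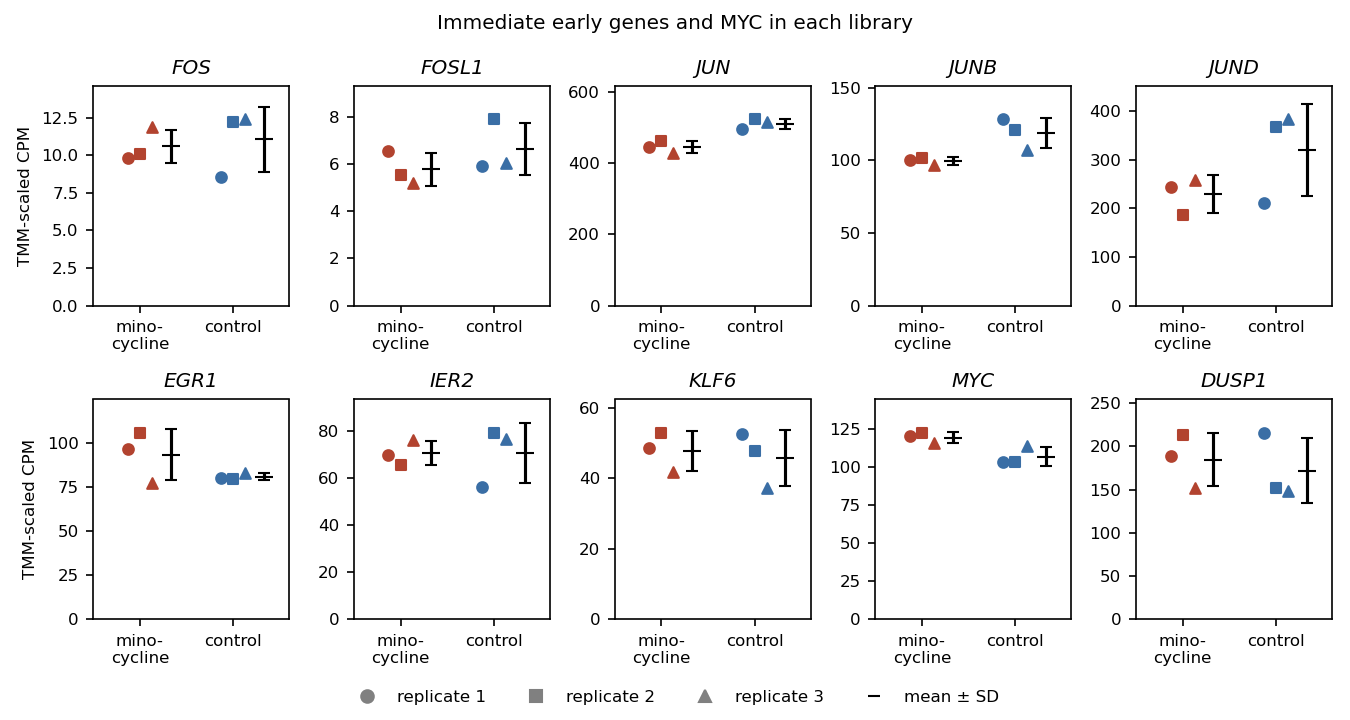
Counts relative to the TMM-scaled library total (CPM) of the 10 genes in each library, with minocycline libraries in red and control libraries in blue, symbols for the replicate and a bar for the mean ± SD of 3 libraries. JUN and JUNB were lower and MYC higher in every minocycline library, while the groups overlapped for the other 7 genes.

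**Figure D2:**
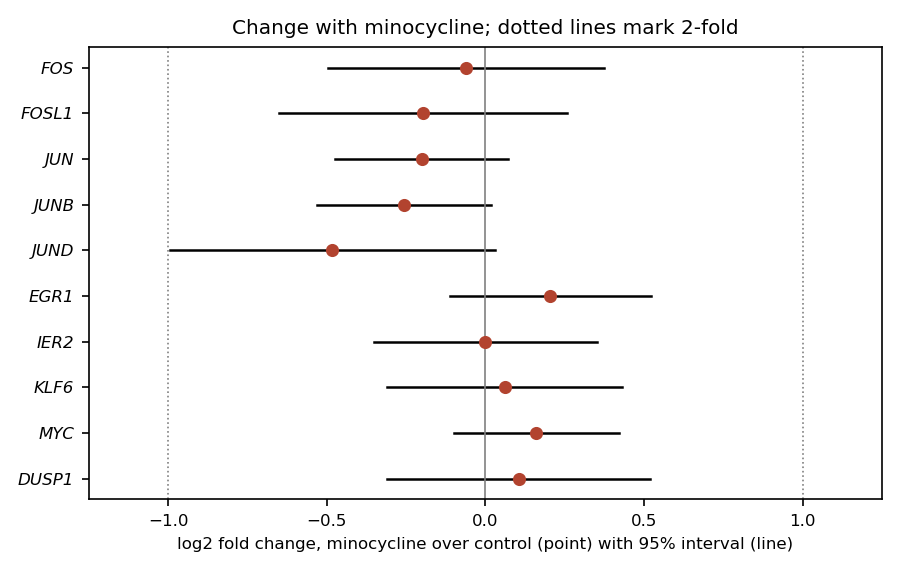
Log2 fold change of minocycline over control for each gene (points) with its 95% interval (lines), and dotted lines at a 2-fold change. Every interval crosses 0 and lies between the dotted lines.

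Promoter sequences are shown for EGR1, which has SRF motifs in the window searched, and for JUN and JUNB, whose groups did not overlap. In the 250 bases before the RefSeq start (GRCh38.p14), EGR1 holds 2 CArG boxes, the binding motif of SRF, which begin 105 and 83 bases before the start. No other of the 8 members matched in the table held one in this window (FOSL1 and MYC were not matched), and 1.16% of 35116 promoters held one. The motif was searched as CCWWWWWWGG, with W for A or T. Sites farther upstream were not searched. The windows of JUN and JUNB hold no CArG box in these letters. Each holds 1 TGACG, the core of the cyclic AMP response element, 123 and 137 bases before the start. The windows are chr5:138465229-138465478 on the plus strand for EGR1, chr1:58784048-58784297 on the minus strand for JUN and chr19:12791236-12791485 on the plus strand for JUNB. They read, 5' to 3' on the gene's strand, with the CArG boxes of EGR1 and the TGACG of JUN and JUNB in capitals:
EGR1: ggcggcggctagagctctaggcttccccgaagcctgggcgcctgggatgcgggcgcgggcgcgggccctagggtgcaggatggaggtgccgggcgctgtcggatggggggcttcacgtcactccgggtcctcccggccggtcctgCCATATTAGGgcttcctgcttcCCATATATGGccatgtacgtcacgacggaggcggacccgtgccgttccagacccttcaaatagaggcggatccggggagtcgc
JUN: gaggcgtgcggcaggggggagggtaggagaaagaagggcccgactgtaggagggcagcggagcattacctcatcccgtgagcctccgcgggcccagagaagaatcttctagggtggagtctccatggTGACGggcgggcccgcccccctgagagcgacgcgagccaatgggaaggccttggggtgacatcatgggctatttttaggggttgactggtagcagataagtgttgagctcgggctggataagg
JUNB: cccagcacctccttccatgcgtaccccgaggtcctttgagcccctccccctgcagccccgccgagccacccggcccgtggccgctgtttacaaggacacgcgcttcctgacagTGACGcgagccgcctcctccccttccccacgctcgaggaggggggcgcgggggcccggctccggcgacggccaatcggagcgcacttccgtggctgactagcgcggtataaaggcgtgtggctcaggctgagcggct

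Searched on both strands, TGACG was found in 7 of the 8 matched members (DUSP1, EGR1, FOS, IER2, JUN, JUNB and JUND) and in 21.2% of all promoters. The full element TGACGTCA, which contains TGACG, was found in DUSP1 and JUND and in 1.65% of all promoters. The SP1 site GGGCGG was found in 6 of 8 (42.6% of all), TATAAA in DUSP1, FOS and JUNB (10.7% of all) and the AP-1 site TGANTCA in none of the 8 (6.57% of all). Only these exact letters were searched, so near matches such as tgacatca in the JUN window were not counted. These matches describe the letters of the windows and were not tested against expression.

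AU-rich pentamers (ATTTA, counted with overlap) were present in the 3' UTR of 9 of the 10 members, beside 72.6% of 13580 protein-coding genes tested. IER2 had none. FOS had 5 in 806 bases and DUSP1 had 4 in 666 bases, which is 6.20 and 6.01 per kb against a median of 1.69 per kb. JUNB had 4 per kb, MYC 3.01 and JUN 2.34. KLF6 lay at the median with 1.69 per kb, and JUND (1.34), FOSL1 (1.2) and EGR1 (0.818) lay below it. The 30-base windows richest in pentamers are shown for FOS and DUSP1, where pentamers overlap, and for JUN and JUNB. The window of JUN holds 1 of the 3 pentamers in its 3' UTR, and that of JUNB 1 of 2. They lie in GRCh37 at chr14:75748760-75748789 (plus strand), chr5:172195644-172195673 (minus strand), chr1:59247008-59247037 (minus strand) and chr19:12903873-12903902 (plus strand), all in the 3' UTR, with the pentamers in capitals:
FOS: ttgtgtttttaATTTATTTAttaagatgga
DUSP1: ggctggtccttATTTATTTAacttcacccg
JUN: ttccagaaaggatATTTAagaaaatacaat
JUNB: aatatatttgtgtATTTAacagggagggga

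The members are compact genes. Their exon length, summed over all annotated exons, ran from 1830 bases for JUNB to 6139 for KLF6, and every member except KLF6 and MYC was shorter than the median of 5378 over protein-coding genes tested. In the transcript annotated as canonical, JUN, JUNB and JUND have a single exon, as did 2.24% of protein-coding genes tested. The GC content of the exons was 69.9% in JUND, 64.9% in JUNB and 61.6% in IER2, and 47.4% in KLF6, with a median of 48.2% over protein-coding genes. In GRCh37 coordinates JUN lies on chromosome 1 from 59242517 to 59249720, JUNB on chromosome 19 from 12902300 to 12904129 and JUND on chromosome 19 from 18390504 to 18392432. FOS lies on chromosome 14 from 75745529 to 75748933, FOSL1 on chromosome 11 from 65659520 to 65668044 and EGR1 on chromosome 5 from 137801168 to 137804992. IER2 lies on chromosome 19 from 13261225 to 13265725, KLF6 on chromosome 10 from 3818188 to 3827473, DUSP1 on chromosome 5 from 172195099 to 172198198 and MYC on chromosome 8 from 128747680 to 128755197. Annotated genes on the opposite strand overlap JUNB (HOOK2, a mean of 534 counts), IER2, MYC (CASC11, 1.67 counts) and DUSP1. The level of JUNB is uncertain to that extent, since nothing at hand says whether reads were counted by strand.

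Levels differed far more between the members than between the groups. Per kb of exon, the TMM-scaled level of JUND was 119 ± 19.9 CPM per kb with minocycline and 166 ± 49.1 in controls (mean ± SD, n = 3 in each group here and below). JUN had 123 ± 4.72 with minocycline and 141 ± 3.82 in controls, DUSP1 had 91.8 ± 15.4 and 85.4 ± 18.8, and JUNB had 54.4 ± 1.5 and 65.0 ± 5.83. These 4 lay at the 95.3rd percentile or above among protein-coding genes. A middle tier held EGR1 (29.7 ± 4.61 CPM per kb with minocycline and 25.7 ± 0.629 in controls), IER2 (23.0 ± 1.71 and 23.0 ± 4.11) and MYC (19.6 ± 0.574 and 17.5 ± 1.02). KLF6 had 7.77 ± 0.905 with minocycline and 7.45 ± 1.28 in controls. FOS and FOSL1 were lowest, with 3.33 ± 0.349 and 3.06 ± 0.373 CPM per kb with minocycline and 3.48 ± 0.676 and 3.51 ± 0.581 in controls, at the 41.0th and 40.2nd percentiles. With minocycline the mean ± SD ranges of neighbours in this order overlapped for JUN and JUND, JUND and DUSP1, and FOS and FOSL1. In controls they overlapped for JUND and JUN, DUSP1 and JUNB, EGR1 and IER2, and FOSL1 and FOS. MYC and FOS depend on the length used: by the longest annotated transcript MYC had 32.1 CPM per kb with minocycline and 28.7 in controls, above EGR1, and FOS had 5.04 and 5.26, above FOSL1 in both groups.

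**Figure D3:**
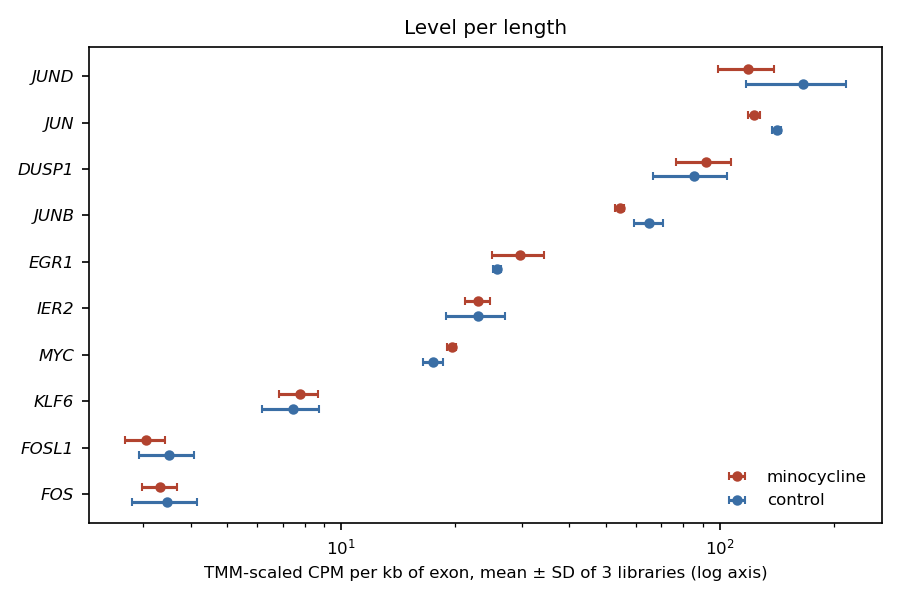
TMM-scaled CPM per kb of exon on a log axis, mean ± SD of 3 libraries, with minocycline above control for each gene. The order runs from JUND and JUN at over 100 CPM per kb to FOS and FOSL1 at 3 to 4.

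Among the partners of AP-1, JUN encodes the c-Jun subunit. Its level was 446, 462 and 428 CPM in minocycline replicates 1, 2 and 3, against 497, 524 and 515 CPM in control replicates 1, 2 and 3. The groups did not overlap, and the coefficient of variation within a group was at most 3.84%, on counts of 7491 to 9139. The log2 fold change was -0.20 ± 0.12 (SE, edgeR adjusted p = 0.820), and within the batches that share a number it was -0.16, -0.18 and -0.27. JUNB, a subunit that is a weaker activator than c-Jun, had 100.0, 102 and 96.6 CPM with minocycline, against 128, 121 and 107 CPM in controls. The minocycline libraries lay close together below the lowest control, and the log2 fold change was -0.26 ± 0.12 (adjusted p = 0.820), with within-batch values of -0.36, -0.25 and -0.15.

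The separation of JUN and JUNB rests on the scaling of the libraries. It was present with TMM, RLE and upper-quartile factors and absent with library size alone, where the groups overlapped for both genes. Groups without overlap were found for 3 of the 10 members, JUN and JUNB as lower and MYC as higher. Over all genes tested 9.31% showed such an arrangement, 5.74% with minocycline higher and 3.56% with minocycline lower. The p-values of the 3 genes give no call.

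JUND, the subunit that is present at a steady level in most resting cells, varied most among libraries. It had 243, 186 and 259 CPM with minocycline, against 211, 367 and 382 CPM in controls. Control replicate 1 lay among the minocycline libraries, and the highest library had 2.06 times the lowest. The log2 fold change was -0.48 ± 0.23 (adjusted p = 0.820), with within-batch values of 0.20, -0.98 and -0.56. Without control replicate 1 the log2 change was -0.71 and the adjusted p 0.00443. In that setting 17.9% of all genes were called, 9.52% as higher and 8.34% as lower, and JUND was the single member among them. JUND passed in none of the other 18 alternatives, where its log2 fold change was as small as -0.14 (with 1 surrogate variable). Leaving out other libraries gave values from -0.34 without control replicate 3 to -0.59 without minocycline replicate 3.

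The Fos family members were scarce. FOS, whose mRNA is the classic short-lived early transcript, had 9.83, 10.1 and 11.9 CPM with minocycline, against 8.59, 12.2 and 12.4 CPM in controls. The minocycline values lay inside the range of the controls, and the log2 fold change was -0.06 ± 0.19 (adjusted p = 0.944). FOSL1, which encodes FRA1, had 6.56, 5.55 and 5.20 CPM with minocycline, against 5.92, 7.88 and 6.05 CPM in controls, with overlapping groups and a log2 fold change of -0.20 ± 0.20 (adjusted p = 0.840). Without control replicate 2 the log2 fold change of FOSL1 was -0.054, and without minocycline replicate 1 it was -0.30. These values rest on 158 to 208 counts of FOS and 91 to 132 counts of FOSL1 per library, for which counting alone gives an error of up to 7.96% and 10.5%.

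EGR1, the zinc finger factor with the CArG boxes shown above, had 96.5, 105 and 77.2 CPM with minocycline, against 80.1, 79.2 and 82.9 CPM in controls. Minocycline replicates 1 and 2 lay above every control and replicate 3 below every control. The controls had a coefficient of variation of 2.44% and the minocycline libraries 15.6%. The log2 fold change was 0.20 ± 0.14 (adjusted p = 0.820), and the within-batch values were 0.27, 0.41 and -0.10. It was 0.10 without minocycline replicate 2 and 0.31 without minocycline replicate 3.

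IER2 had 70.0, 65.9 and 76.4 CPM with minocycline, against 56.2, 79.4 and 76.8 CPM in controls, and a log2 fold change of 0.00 ± 0.16 (adjusted p = 0.999). KLF6, a Krüppel-like factor, had 48.5, 52.8 and 41.8 CPM with minocycline, against 52.4, 47.8 and 37.1 CPM in controls, and a log2 fold change of 0.06 ± 0.16 (adjusted p = 0.933). The groups overlapped for both genes.

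DUSP1 had 189, 214 and 152 CPM with minocycline, against 216, 151 and 149 CPM in controls. Control replicate 1 and minocycline replicate 2 were the highest libraries, and the groups overlapped. The log2 fold change was 0.10 ± 0.19 (adjusted p = 0.900), with within-batch values of -0.19, 0.50 and 0.03.

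MYC had 120.2, 122 and 116 CPM with minocycline, against 103, 103 and 114 CPM in controls. All 3 minocycline libraries were above the controls, the nearest pair being minocycline replicate 3 and control replicate 3. The log2 fold change was 0.16 ± 0.12 (adjusted p = 0.820), with within-batch values of 0.22, 0.25 and 0.02. The groups did not overlap with TMM and upper-quartile factors or library size alone, and overlapped with RLE factors.

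The 5 members with the widest spread within groups (an SD of 0.208 to 0.383 on the log2 scale) varied along a difference between libraries that crossed the groups. The first principal component of all genes tested held 52.9% of the variance. Its scores were -14.0, -32.3 and 3.06 for minocycline replicates 1, 2 and 3, and -34.9, 31.1 and 47.1 for control replicates 1, 2 and 3. JUND, FOS and IER2 were lowest in control replicate 1 or minocycline replicate 2 and highest in control replicates 2 and 3, at the other end of the component. DUSP1 and KLF6 were highest in control replicate 1 and minocycline replicate 2 and lowest in control replicate 3. FOSL1, next in spread with an SD of 0.203, followed neither order. It was highest in control replicate 2 and lowest in minocycline replicate 3. Exon composition moved along the order of the component. The 533 protein-coding genes with exons under 2500 bases and a GC content over 60% deviated by a median of -0.08, -0.30 and 0.03 (log2) in the minocycline libraries and by -0.27, 0.26 and 0.38 in the controls. The part of length and GC content in each member's values was not tested. With a correction for both, the log2 fold change of JUND was -0.28 (-0.48 without it), of JUNB -0.13 (-0.26) and of FOSL1 -0.09 (-0.20). The change was also smaller in size for JUN, FOS, MYC and KLF6. It was larger for EGR1 at 0.26 (0.20), DUSP1 at 0.15 (0.10) and IER2 at 0.12 (-0.00035).

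**Figure D4:**
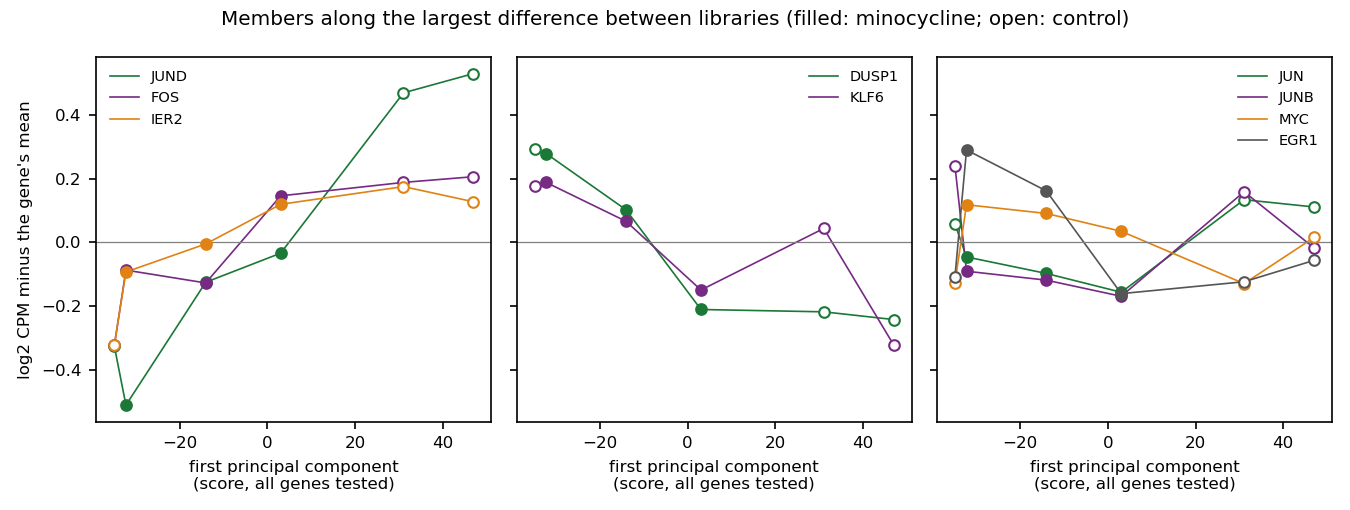
Log2 CPM of each gene except FOSL1, which is not drawn, minus its mean over the 6 libraries. It is set against the score of the library on the first principal component, with filled points for minocycline and open points for control. JUND, FOS and IER2 run upward along the component and DUSP1 and KLF6 downward.

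The wider set of early genes showed the same absence of calls at 12 h. Of 36 other immediate early genes 35 were tested, 13 with a higher and 22 with a lower fitted level and a median log2 fold change of -0.08, and none was called (0.0522% of all genes). RHOB, a small GTPase gene, was the 1 gene of the list at an unadjusted p under 0.05 in edgeR's test. It had 374, 359 and 348 CPM with minocycline, against 404, 503 and 472 CPM in controls, with groups apart and a log2 fold change of -0.35 ± 0.13 (adjusted p = 0.820). The others named by rank were ID1, an inhibitor of helix-loop-helix factors (-0.41 ± 0.20), the EGR1 relative EGR3 (0.52 ± 0.26) and the Krüppel-like factor KLF4 (0.32 ± 0.16), each with an adjusted p of 0.820. In this list 3 genes had groups apart as higher (EGR3, KLF4 and HBEGF) and 1 as lower (RHOB). Over all genes tested the shares were 5.74% and 3.56%. Of the 19 alternatives, the omission of control replicate 1 was the one that called RHOB (adjusted p = 0.0180) and ID1 (0.0133). That omission called 17.9% of all genes.

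Among the bZIP partners, JDP2 had the largest log2 fold change in this fit. JDP2, which encodes a Jun dimerization protein that represses AP-1 sites, had 29.2, 20.5 and 23.6 CPM with minocycline, against 6.68, 10.9 and 11.7 CPM in controls. The lowest minocycline library lay above the highest control library. The log2 fold change was 1.33 ± 0.23 with a 95% interval from 0.80 to 1.85, and the adjusted p over all genes was 0.177. JDP2 passed in 5 of 19 alternatives, with adjusted p of 0.000168 in DESeq2, 3.14e-07 with no filter on low counts, 0.0188 with the replicate block and the length and GC correction, 0.000102 with 1 surrogate variable and 0.00161 without control replicate 1. DESeq2 called 0.302% of all genes, no filter 0.28% and 1 surrogate variable 0.528%, and the adjusted p of JDP2 ran up to 1.00 in the others. JDP2 lies on chromosome 14 from 75894419 to 75940814, 145.5 kb downstream of FOS, for which the groups overlapped. Of the 16 bZIP partners tested 13 had a higher and 3 a lower fitted level, with a median log2 fold change of 0.17 and no call. Groups were apart as higher for 2 of the 16 and as lower for 0, beside 5.74% and 3.56% of all genes tested. By rank the others were NFE2L1, a regulator of proteasome genes (0.37 ± 0.19), and BATF3 (-0.27 ± 0.18). NFE2L1 passed without control replicate 1 alone (adjusted p = 0.0116), a setting that called 17.9% of all genes.

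No gene that acts on the members was called in its list. Of 15 MAP kinase phosphatases and Sprouty or SPRED proteins, which damp MAP kinase signalling, 8 had a higher and 7 a lower fitted level (median 0.06). SPRY4 showed 0.85 ± 0.34 at 1.45 to 5.65 CPM, DUSP6 0.39 ± 0.22, DUSP5 -0.23 ± 0.17 and DUSP7 -0.19 ± 0.15. Of 27 upstream kinases and SRF, TCF and CREB factors 13 had a higher and 14 a lower fitted level (median -0.01). Among these, RPS6KA1, a kinase below ERK, showed -0.39 ± 0.16, the SRF partner ELK1 -0.32 ± 0.14, the stress kinase MAP3K20 0.21 ± 0.15 and the CREB coactivator CRTC3 0.13 ± 0.12. Of 13 other Krüppel-like factors 10 had a higher and 3 a lower fitted level (median 0.08), with KLF9 at 0.28 ± 0.13, KLF4 as above, KLF16 at -0.33 ± 0.15 and KLF2 at -0.25 ± 0.22. Of 21 factors that bind or degrade AU-rich mRNAs 13 had a higher and 8 a lower fitted level (median 0.08), with TIA1 at 0.24 ± 0.18, the exonuclease XRN1 at 0.27 ± 0.27, KHSRP at -0.19 ± 0.14 and ZFP36, which encodes tristetraprolin, at -0.23 ± 0.20. The adjusted p of each gene named here was at least 0.820 in edgeR's test, and SPRY4, RPS6KA1 and ELK1 were the genes of these 4 lists at an unadjusted p under 0.05 (0.0317, 0.0316 and 0.0488). Without control replicate 1, and in no other alternative, SPRY4 (adjusted p = 0.0301), RPS6KA1 (0.00784), ELK1 (0.0265), KLF16 (0.0415) and XRN1 (0.0164) passed. In that setting 17.9% of all genes were called.

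Around MYC, the 20 partners, antagonists and turnover factors had 8 higher and 12 lower fitted levels (median -0.05) and no call. The MYC paralogs MYCN and MYCL showed -0.64 ± 0.32 and -0.36 ± 0.18, the deubiquitinase USP28 0.28 ± 0.13 and the MAX partner MNT 0.23 ± 0.20. Of 35 MYC target genes 14 had a higher and 21 a lower fitted level (median -0.05), also with no call. SLC7A5, a transporter of large neutral amino acids that is also a target of ATF4, had 516, 479 and 398 CPM with minocycline, against 263, 159 and 141 CPM in controls. The groups were apart, the log2 fold change was 1.31 ± 0.23 and the adjusted p 0.177. Of the 35 targets 2 had groups apart as higher and 4 as lower, beside 5.74% and 3.56% of all genes tested. SLC7A5 passed with the replicate number as a block (adjusted p = 0.0115) and in 6 of 19 alternatives in all, within a range of 2.13e-11 to 1.00, with 9.49e-06 without control replicate 1. SHMT2, the mitochondrial serine hydroxymethyltransferase, had 481, 450.2 and 489 CPM with minocycline, against 281, 339.7 and 382 CPM in controls (0.50 ± 0.15, adjusted p = 0.820). HSPE1, a mitochondrial chaperonin, showed -0.48 ± 0.16 and PTMA, which encodes prothymosin alpha, -0.39 ± 0.19. SHMT2 was called after fitting 1 surrogate variable (0.00102 adjusted) and without control replicate 1 (0.0346 adjusted), and MYCN (0.0327), HSPE1 (0.0218) and PTMA (0.0136) passed without that library alone. Its omission called 17.9% of all genes. SLC7A5, SHMT2 and HSPE1 were the 3 targets at an unadjusted p under 0.05 in edgeR, and no MYC partner was. Across all 8 lists the 174 genes tested gave 0 calls in edgeR, 0 in limma-voom and 2 in DESeq2, which were JDP2 and SLC7A5.

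**Figure D5:**
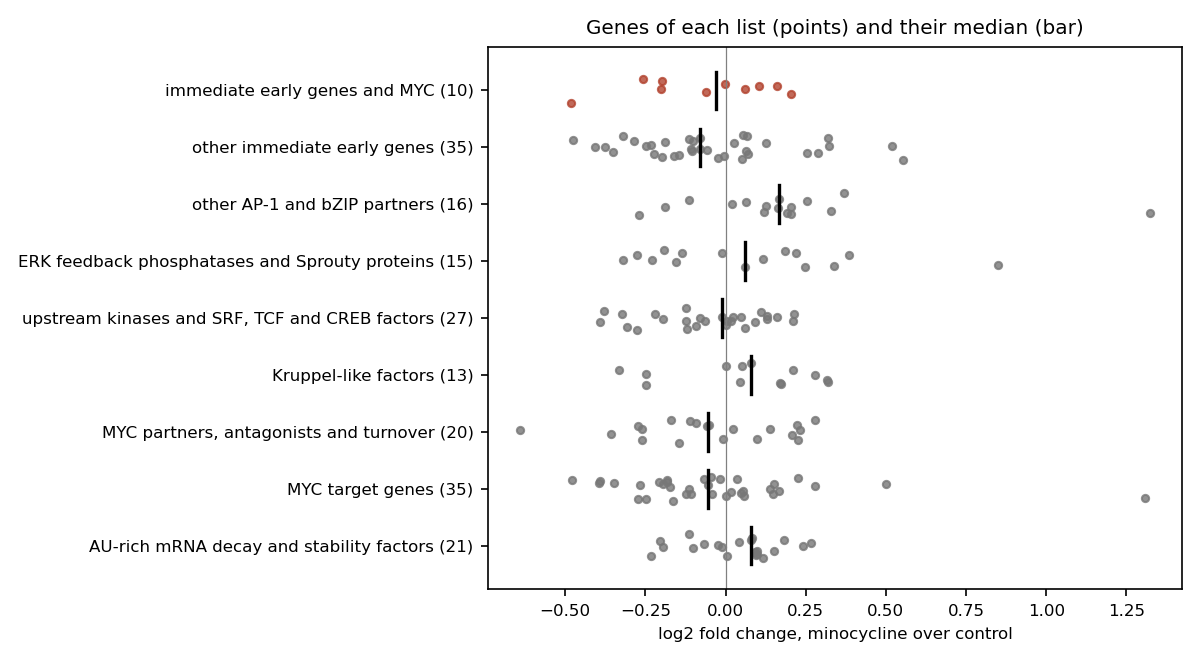
Log2 fold change of minocycline over control for the genes of each list (points), with the number tested in parentheses and a bar at the median. The 10 members lie between -0.48 and 0.20, and JDP2 and SLC7A5 stand to the right of their lists at 1.33 and 1.31.

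The genes most like 4 of the members were found by the root mean square difference between centred log2 CPM profiles over the 6 libraries, among 10971 protein-coding genes with a mean of at least 5 CPM. For JUN these were MICALL2 (0.0173), AK4 (0.0295) and DACT1 (0.0298), for MYC they were BFAR (0.0265), AL357673.1 (0.0345) and TCEANC2 (0.0347), for FOS they were DCP1B (0.0389), SERPINB1 (0.0391) and MAP1LC3B (0.0403), and for EGR1 they were EXOG (0.0470), VAPB (0.0474) and DHX35 (0.0535). The profiles of JUN, MYC, FOS and EGR1 themselves had a root mean square size of 0.108, 0.0970, 0.195 and 0.167, and 819, 507, 414 and 93 genes lay within 0.1 of them.

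The total count per library was 17303180 to 17835756, of which the 10 members took 0.128% to 0.144%. Of 8 markers listed for HEK293 cells 6 passed the filter on low counts, among them VIM at 722 CPM with minocycline and 691 in controls and NEFM at 78.9 and 79.6, and the remaining genes NEFL and LHX1 were not analysed here. The summed level of those 6 was 844 to 1084 CPM with minocycline and 734 to 1000 in controls. Blood, endothelial, hepatocyte and keratinocyte markers summed to at most 3.31 CPM in any library, with KRT1 at 0 in all, and PECAM1 was not analysed here. Of 6 fibroblast markers COL1A1 alone was plentiful (63.6 CPM with minocycline and 77.1 in controls), and DCN and COL1A2 had at most 2 counts in any library. The fibroblast markers summed to 58.3 to 75.1 CPM with minocycline and 78.0 to 85.1 CPM in controls, without overlap. The part of other cell types in the members' values was not tested.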

How the data were processed

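RNA was measured in 6 total RNA libraries of HEK293 cells, 3 with minocycline and 3 with DMSO. Per the labels' protocols, RNA was column-purified with DNase digestion and sequenced in read pairs. The authors deposited whole-number counts per gene with no normalization, and the build was hg19 per the submitters' processing notes; aligner, counter, strand setting and RNA selection are not given in the sources used here. Library totals were 17303180 to 17835756. Symbols matched 55538 of 57820 identifiers. The members and lists were chosen with earlier results of these data known.

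Genes passing filterByExpr were scaled by TMM and tested with edgeR 4.0.16 (R 4.3.3; glmQLFit and glmQLFTest, treatment alone, Benjamini-Hochberg adjustment over 17225 genes, threshold 0.05). The fit was also run on simulated counts drawn independently for each gene. These hold no difference between libraries that many genes share, so they do not check the fit against such a difference. A standard error is the fitted coefficient divided by the square root of F, and intervals use the fit's degrees of freedom. Within groups the chi-square of counts over its degrees of freedom was 5.80 to 63.6, above sampling noise. Coordinates, exon lengths, GC content and 3' UTRs came from GENCODE v44 mapped to GRCh37, the coordinate system of hg19, and promoters from RefSeq (GRCh38.p14). Named genes were all members, then per list any gene called and the 2 with the smallest p in each direction, of which 1 gene is not reported here. The labels give the replicate number as the batch, which pairs the libraries. Deviations from group means correlated at -0.05, -0.29 and 0.30 in same-numbered pairs. In pairs with different numbers the correlation ran from -0.42 (minocycline replicate 2 with control replicate 3) to 0.50 (minocycline replicate 2 with control replicate 1). Alternatives were other scalings, DESeq2 1.42.0, limma-voom 3.58.1, the newer quasi-likelihood method, other count filters, a minimum fold, the replicate block, a length and GC correction (splines with 4 degrees of freedom), that correction with the block, 1 surrogate variable (sva 3.50.0) and each library left out.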

Additional observations from a re-analysis of the deposited data

How the results depend on the processing

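No member was called in 18 of 19 alternatives, and leaving out each library in turn gave 0 to 1 member. Of 190 member values 22 changed sign, all in 4 genes near 0, and the cause was not tested. FOS was 0.019 with library size alone, 0.14 with 1 surrogate variable and -0.22 to 0.020 with a library left out. IER2 was 0.079 with library size alone, 0.015 with limma-voom, 0.0063 with at least 10 counts in every library, 0.013 with the replicate block, 0.12 with the length and GC correction with or without the block, 0.18 with 1 surrogate variable and -0.14 to 0.089 with a library left out. KLF6 was -0.014 with that correction, -0.0082 with it and the block, -0.081 with 1 surrogate variable and -0.079 to 0.17 with a library left out. DUSP1 was -0.095 with 1 surrogate variable and -0.012 to 0.30 with a library left out, and XRN1 was -0.00963 with 1 surrogate variable. JUN, JUNB, JUND, FOSL1, EGR1 and MYC kept their direction in all 19. Over all genes 9 were called, all higher. The count was 91 with 1 surrogate variable (83 higher, 8 lower), 50 with DESeq2 (48 and 2), 94 with no filter on low counts (75 and 19), 26 with the length and GC correction (25 and 1), 35 with it and the replicate block (33 and 2), 13 with the replicate block alone (12 and 1) and 3 with a minimum fold of 1.5. With a library left out it ran from 1 to 3154 (1 to 1681 higher, 0 to 1473 lower), the highest without control replicate 1, with 1 without minocycline replicate 1 or 3 and 4 without control replicate 2. Of the listed genes outside the members 0 were called, against 3 with 1 surrogate variable, 3 with no filter, 2 with DESeq2, 1 with the replicate block, 2 with the block and correction, and 0 to 35 with a library left out. The 35 were called without control replicate 1, where 17.9% of all genes were called. The block changed no call among the members. Of the other genes named, it changed the call of SLC7A5, and that of JDP2 where it was added to the length and GC correction. FOS and FOSL1 are limited by counts of at most 208 per library.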
